A study of Mus musculus with 6 samples.

Results

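Neuropeptide precursors were examined in hippocampal RNA of Glud1 Tg mice and their wt controls. The 10 genes were chosen by their names, with earlier results of these data known: Sst, Npy, Cck, Vip, Nts, Penk, Pdyn, Tac1, Tac2 and Crh. The array holds 11 probesets annotated to 1 of these genes alone, of 45101 probesets in all: 2 for Tac1 and 1 for each of the others. Glud1 Tg mice carry extra copies of the mouse gene for glutamate dehydrogenase 1 under the neuron-specific enolase (Nse) promoter, which drives the transgene in neurons. The Tg group was 3 males of 9 months, and the wt group was 3 males of the same age without the transgene. Both groups had the C57BL/6 background and neither was treated. Total RNA of homogenized hippocampus was hybridized to 1 Affymetrix Mouse Genome array per mouse, and the measured quantity was the MAS5 signal, a linear intensity per probeset with no unit of its own. Because the tissue was homogenized whole, fewer cells of a type and less RNA per cell cannot be told apart.

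Neuropeptides are made as long precursors, which are cut by convertases and trimmed inside dense-core granules before release. They act on G protein-coupled receptors, over longer times and distances than glutamate or GABA. In the hippocampus several of these precursors mark classes of GABAergic interneuron: Sst marks cells that contact the outer dendrites of pyramidal neurons, Vip marks cells that contact other interneurons, and Cck marks a class of basket cell and is also made by pyramidal neurons. The opioid precursors Penk and Pdyn are made by dentate granule cells, among other neurons.

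Signals were compared as log2(signal + 16) with limma, which pools the spread over all probesets, and a log2 difference is Tg minus wt. An adjusted p is a limma p adjusted by the Benjamini-Hochberg method over the 31076 probesets kept by a filter on level, and 0.05 was the threshold of a call. In limma no probeset of the whole array was called, while Cyber-T, which the study's methods use beside SAM, called 65 probesets. At an unadjusted p under 0.05, limma counted 1837 probesets with higher and 1174 with lower signal in Tg hippocampus.

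The median signal over kept probesets was 310.0 to 319.0 in Tg and 297.0 to 305.0 in wt, so that every Tg array was slightly above every wt array. Centring the arrays on this median moved the median log2 difference of the precursors to -0.23, against -0.16 as deposited. Control readings varied more. The 18S ribosomal RNA control was 975.5 to 3312.8 in Tg arrays and 2286.5 to 13960.1 in wt arrays, where wt 1 and wt 2 stood above the rest. The ratio of 3′ to 5′ signal for Actb, a sign of RNA integrity, was 1.64 to 1.69 in Tg and 1.7 to 1.95 in wt (two-sided exact permutation test, p = 0.1, which is the lowest value 3 against 3 arrays can give). The transgene gave no check of the labels: the brighter of the 2 kept Glud1 probesets read 5115.6, 5595.7 and 5560.8 in Tg and 6383.3, 5647.3 and 5998.2 in wt (log2 difference -0.15, SE 0.0815, adjusted p = 0.595). Whether these probesets detect the transgene's transcript is not given in the sources used here, so every direction below rests on the labels. All 8 dentate granule cell markers and all 9 CA field markers passed the filter on level, as did all 7 thalamic and all 8 choroid plexus markers, so passing it did not tell the hippocampus from its neighbours.

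Of the 10 precursor genes, 6 had a lower and 4 a higher mean log2 signal in Tg than in wt, beside 56.0% lower and 44.0% higher among all genes. Sst, Vip and Nts were the only precursors whose 3 Tg values all lay below the 3 wt values, and none had all 3 Tg values above at its brightest probeset. Among all 13854 genes, 8.8% lay wholly below and 5.19% wholly above, so 3 of 10 stands beside a background of 8.8%. The same 3 genes were lower at an unadjusted p under 0.05, against 4.95% of all genes, and no precursor was higher at that level (2.86% of all genes). None was called by limma (0.0% of all genes), and 1, Sst, was called by Cyber-T at an adjusted p of 0.0494 (0.18% of all genes). The median log2 difference was -0.16 over the 10 precursors and -0.03 over all genes. It rested in part on single arrays, with -0.04 without Tg 1, -0.10 without wt 2 and -0.26 without wt 1. The summed signal of the precursors was 15876 to 16682 in Tg arrays and 16957 to 18311 in wt arrays (exact permutation test, two-sided, p = 0.1). The sum over all 13854 genes separated the groups in the same way, with 18493071 to 18867155 in Tg and 19027175 to 19559047 in wt (p = 0.1 in the same exact test), at a ratio of 0.972 against 0.922 for the precursors.

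**Figure D1:**
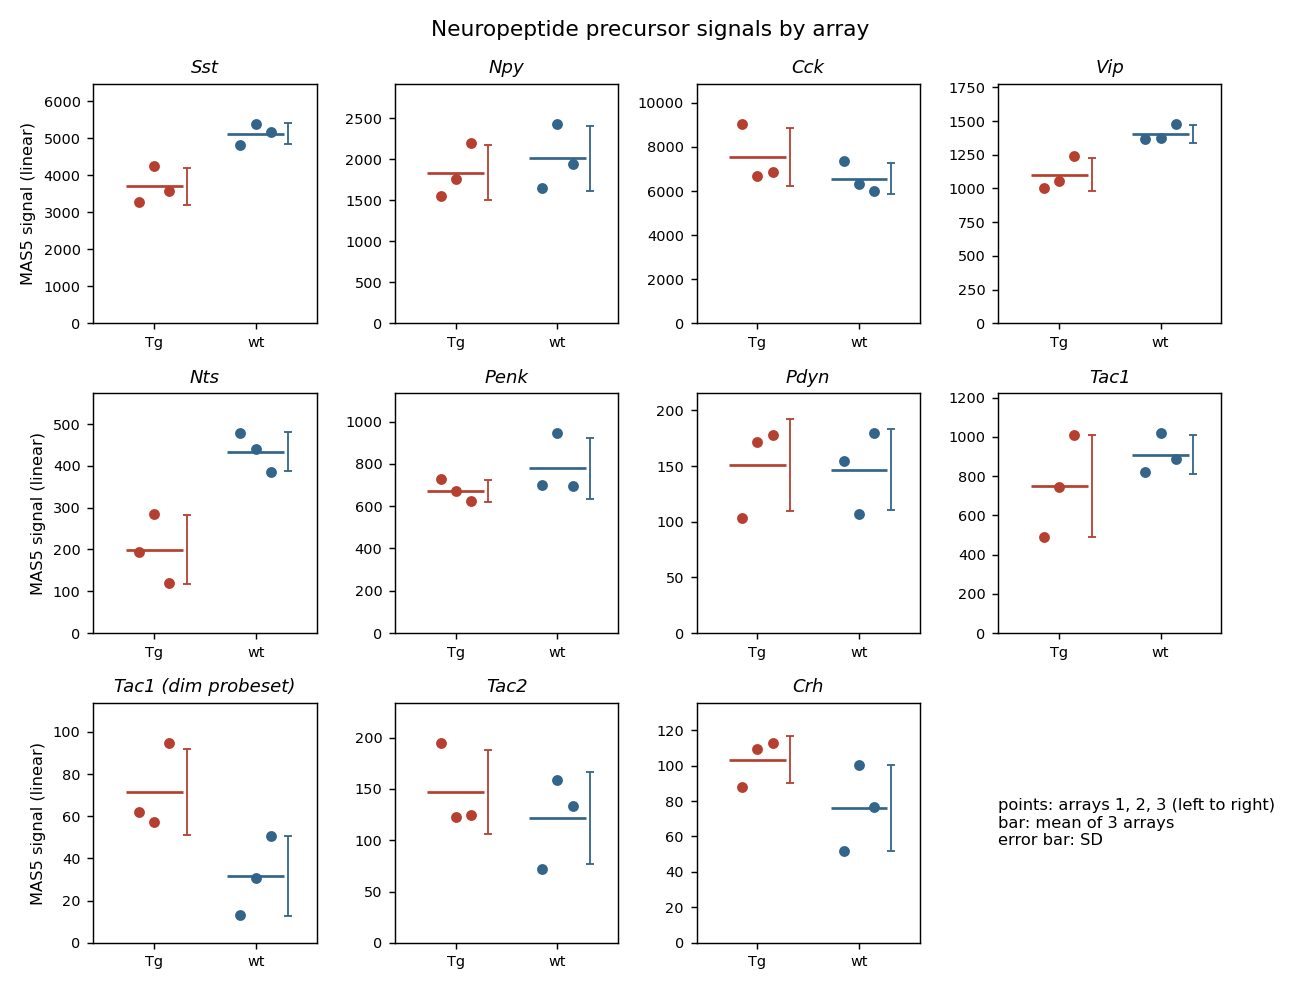
MAS5 signal (linear scale, from 0) of the 11 probesets annotated to the precursors, 1 panel per probeset, with the 3 Tg arrays left and the 3 wt arrays right. Each point is 1 array and the bars give mean and SD. The Tg and wt points are separate, with Tg below, in the panels of Sst, Vip and Nts, and separate with Tg above in that of the dim second Tac1 probeset.

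Because these 3 genes carry the results, the 250 bases before their start sites are shown as RefSeq gives them for GRCm38.p6, 5′ to 3′ on the strand of the gene. Somatostatin and VIP are textbook cases of genes regulated through a cAMP response element, whose full form is TGACGTCA and whose short form is TGACG on either strand. The full form holds the short form on both strands. The capitals mark these letters. The regions are chr16:23890845-23891094 on the minus strand for Sst, chr10:5638968-5639217 on the plus strand for Vip and chr10:102490419-102490668 on the minus strand for Nts. The RefSeq gene of Sst spans chr16:23889573-23891342 and that of Vip begins at chr10:5639193. The Sst region thus lies within its gene, and the Vip region runs past its gene's start. Positions count from the start site of each region, not from the outer end of the gene.
Sst: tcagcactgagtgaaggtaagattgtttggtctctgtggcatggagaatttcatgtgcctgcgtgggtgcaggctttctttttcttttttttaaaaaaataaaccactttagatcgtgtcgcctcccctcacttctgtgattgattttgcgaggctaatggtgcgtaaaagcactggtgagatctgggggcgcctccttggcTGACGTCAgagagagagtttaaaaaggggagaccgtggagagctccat
Vip: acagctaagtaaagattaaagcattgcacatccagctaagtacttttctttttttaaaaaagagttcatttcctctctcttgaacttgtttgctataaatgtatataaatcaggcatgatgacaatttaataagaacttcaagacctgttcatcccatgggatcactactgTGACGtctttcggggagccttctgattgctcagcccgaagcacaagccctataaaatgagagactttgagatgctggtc
Nts: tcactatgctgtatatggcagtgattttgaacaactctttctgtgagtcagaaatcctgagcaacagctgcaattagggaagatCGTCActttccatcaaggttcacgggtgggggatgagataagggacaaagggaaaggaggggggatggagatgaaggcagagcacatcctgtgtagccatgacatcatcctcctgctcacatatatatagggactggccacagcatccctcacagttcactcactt
Only the Sst region held the full element, which began at base -48 counted back from the start site, and 1.55% of the 32851 mouse promoters of that length held it. The short form began at -79 in Vip and at -166 in Nts. RefSeq promoters were matched for 8 of the 10 precursors (Penk and Crh were not matched), with 2 promoters for Pdyn. The short form stood in 5 of these 9 promoters, those of Sst, Vip, Nts, Cck (-47) and Tac1 (-197 and -43), against 17.8% of all promoters. The element was looked for because Sst and Vip are known for it, so its presence in their regions is not independent evidence. The shares over all promoters are given for scale, and enrichment was not tested. The match describes letters in a window and no binding was measured here.

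Somatostatin (Sst), which inhibits transmitter release and hormone secretion, had the smallest p of the precursors. Its signal was 3267.6, 4260.0 and 3574.5 in Tg 1, 2 and 3, and 4817.6, 5397.0 and 5165.3 in wt 1, 2 and 3. The lowest wt array stood 558 above the highest Tg array. The mean was 3701 ± 508 in Tg and 5127 ± 292 in wt (SD, n = 3 each), a ratio of 0.722. The log2 difference was -0.48 (SE 0.103, 95% interval -0.70 to -0.25), with an unadjusted limma p of 0.000586, rank 86 of the 31076 probesets, and an adjusted p of 0.212. The difference in means exceeded the spread within either group, but not the threshold over the whole array.

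Vasoactive intestinal peptide (Vip), the precursor that marks interneurons acting on other interneurons, read 1004.1, 1058.4 and 1237.9 in Tg and 1363.3, 1373.1 and 1481.5 in wt. All wt arrays were above all Tg arrays, by at least 125, and Tg 3 came nearest to them. Means were 1100 ± 122 in Tg and 1406 ± 65.6 in wt (SD, n = 3 each). The ratio was 0.782 and the log2 difference -0.35 (SE 0.114, 95% interval -0.60 to -0.11, limma adjusted p = 0.338).

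Neurotensin (Nts), a peptide known for its action on dopamine pathways, had the largest difference of the 10 genes on the log2 scale. Signals were 193.8, 285.4 and 120.5 in Tg and 477.9, 440.0 and 384.6 in wt. Tg 3 was lowest and Tg 2 highest of the transgenic arrays, and 99.2 separated Tg 2 from the lowest wt array. The mean was 199.9 ± 82.6 in Tg and 434.2 ± 46.9 in wt (SD, n = 3 each), a ratio of 0.46. limma gave a log2 difference of -1.13 (SE 0.263, 95% interval -1.70 to -0.56, adjusted p = 0.227), and the Cyber-T adjusted p was 0.0658. Nts and Vip are among the genes that the study selected on these same arrays, so their direction here is not independent evidence; Sst is not among them.

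Npy and Cck were not separated. Neuropeptide Y (Npy), which dampens glutamate release, read 1550.1, 1754.0 and 2203.7 in Tg and 1653.5, 2435.0 and 1939.5 in wt. The lowest array of all was Tg 1 and the highest wt 2, with the rest interleaved, and the log2 difference was -0.13 (95% interval -0.46 to 0.21, limma adjusted p = 0.824). Cholecystokinin (Cck) was read at 9061.7, 6698.9 and 6864.0 in Tg and 7341.7, 6337.8 and 6013.8 in wt. Tg 1 was the highest array and wt 1 lay above the other 2 Tg arrays, so the groups overlapped. Its log2 difference was 0.19 (95% interval -0.07 to 0.45, limma adjusted p = 0.634), with means of 7542 ± 1320 in Tg and 6564 ± 692 in wt (SD, n = 3 each).

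**Figure D2:**
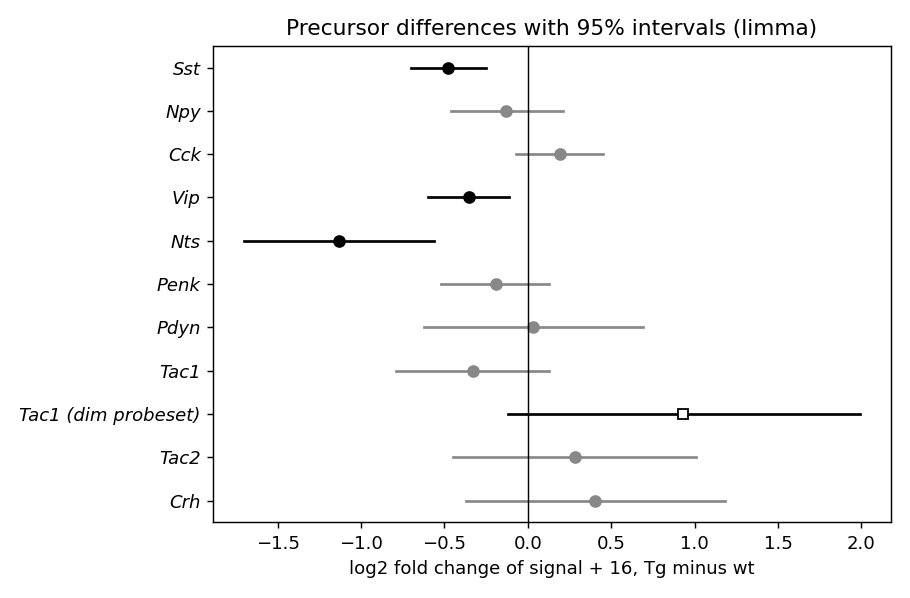
Log2 difference (Tg minus wt, on log2(signal + 16)) of each probeset of the precursors with its 95% limma interval, n = 3 arrays each. Black marks genes whose groups did not overlap, and the open square is the Tac1 probeset left out by the filter on level. Only the intervals of Sst (-0.70 to -0.25), Vip (-0.60 to -0.11) and Nts (-1.70 to -0.56) leave out 0.

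The opioid precursors overlapped between groups. Proenkephalin (Penk), the source of the enkephalins, read 727.6, 669.2 and 623.6 in Tg and 698.5, 943.8 and 693.7 in wt. A single array, wt 2, stood above the others, which were mixed, and the log2 difference was -0.19 (95% interval -0.52 to 0.13, limma adjusted p = 0.711). Prodynorphin (Pdyn), the source of the dynorphins, read 103.7, 172.0 and 178.0 in Tg and 154.2, 107.1 and 179.3 in wt. Each group had 1 low array, Tg 1 and wt 2, and the means were 151.2 ± 41.3 in Tg and 146.9 ± 36.7 in wt (SD, n = 3 each). The log2 difference was 0.03, with a 95% interval from -0.62 to 0.69, and its sign turned to -0.05 under quantile normalization and to -0.04 when arrays were centred on their medians.

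The tachykinin precursors gave no single direction. Tac1 encodes substance P and neurokinin A, and its brighter probeset read 490.4, 746.1 and 1012.1 in Tg and 819.6, 1018.2 and 890.1 in wt. Tg 1 and Tg 2 were below every wt array, while Tg 3 was below wt 2 only. The log2 difference was -0.33 (SE 0.212, 95% interval -0.79 to 0.13, limma adjusted p = 0.644). The second Tac1 probeset lay below the filter on level and ran the opposite way, with 62.2, 57.4 and 94.6 in Tg and 13.2, 30.8 and 50.8 in wt. Its 3 Tg arrays all stood above its wt arrays, and without the filter its log2 difference was 0.93 (95% interval -0.12 to 1.99, limma adjusted p = 0.649). Tac2, which encodes neurokinin B, read 194.6, 122.6 and 124.3 in Tg and 71.8, 159.0 and 133.1 in wt. Tg 1 was high and wt 1 low, the other 4 arrays were mixed, and the log2 difference was 0.28 (95% interval -0.45 to 1.01, limma adjusted p = 0.822).

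Corticotropin-releasing hormone (Crh), the stress peptide that hippocampal interneurons also make, read 88.1, 109.1 and 112.6 in Tg and 51.6, 100.4 and 76.5 in wt. Tg 2 and Tg 3 were above every wt array, but wt 2 was above Tg 1. Means were 103.3 ± 13.3 in Tg and 76.17 ± 24.4 in wt (SD, n = 3 each). The log2 difference of 0.40 was the highest of the 10 genes at the brightest probeset, and its 95% interval from -0.37 to 1.18 was among the widest (limma adjusted p = 0.746).

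The spread within groups differed between precursors. The coefficient of variation over 3 arrays was 13.7% in Tg and 5.69% in wt for Sst, 11.1% in Tg and 4.67% in wt for Vip, and 41.3% in Tg and 10.8% in wt for Nts. Npy, Penk, Tac2 and Crh had the wider spread in wt, for example 7.74% in Tg and 18.4% in wt for Penk and 27.9% in Tg and 36.9% in wt for Tac2. The median over the 10 genes was 17.9% in Tg and 14.7% in wt, against 12.5% in Tg and 12.8% in wt over all genes. In 4 precursors, Nts, Pdyn, Tac1 and Tac2, the Tg value was over 20%.

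The 3 separated genes did not order the arrays alike. Relative to the mean of the 6 arrays on the log2 scale, Sst was -0.41, -0.03 and -0.28 in Tg 1, 2 and 3 and 0.15, 0.31 and 0.25 in wt 1, 2 and 3. Nts was -0.53, -0.01 and -1.15 in Tg and 0.70, 0.59 and 0.40 in wt. Both genes had Tg 2 nearest to wt, whereas Vip, at -0.30, -0.23 and 0.00 in Tg and 0.13, 0.14 and 0.25 in wt, had Tg 3 nearest.

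**Figure D3:**
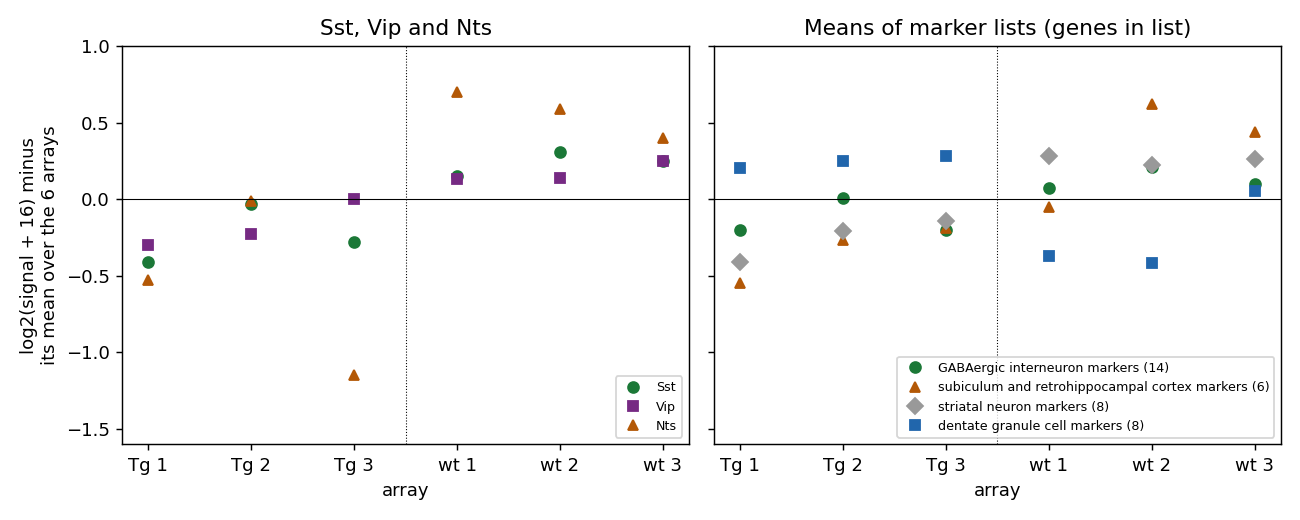
Left, log2 signal of Sst, Vip and Nts on each array relative to the gene's mean over the 6 arrays, with the Tg arrays left of the wt arrays. Right, the mean of the same quantity over the genes of 4 marker lists, in which the subiculum and retrohippocampal list lay between -0.55 and -0.19 in the Tg arrays and between -0.05 and 0.62 in the wt arrays.

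The receptors of these peptides were spread over both directions. Of 24 receptor and binding protein genes, 19 passed the filter (Sstr1, Cckar, Vipr2, Oprd1 and Tacr1 did not), of which 8 were lower and 11 higher in Tg with a median log2 difference of 0.07 (-0.05 without wt 2, -0.02 without Tg 3 and 0.02 without Tg 2). No receptor was called by limma or Cyber-T. Their summed signal was 16760 to 18380 in Tg and 17655 to 18240 in wt (exact permutation test, two-sided, p = 0.9).

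Ntsr1, Tacr3 and Cckbr were the 3 receptor genes whose Tg values all lay below the wt values, and no receptor lay wholly above (8.8% and 5.19% of all genes). The high-affinity neurotensin receptor Ntsr1 read 13.3, 54.2 and 58.1 in Tg and 172.9, 107.5 and 124.7 in wt. Its Tg mean of 41.87 lay under the filter level of 47.8, so it was kept through its wt signal alone. Its log2 difference was -1.48 (SE 0.451, limma adjusted p = 0.309). The neurokinin B receptor Tacr3 averaged 138.3 ± 47 in Tg and 225.4 ± 29 in wt (SD, n = 3 each; log2 difference -0.69, limma adjusted p = 0.464). Cckbr, the main cholecystokinin receptor of the brain, averaged 353.7 ± 76.7 in Tg and 440.4 ± 19.9 in wt (SD, n = 3 each), and Tg 3 (418.9) almost met wt 1 (419.5). Ntsr2, the second neurotensin receptor, overlapped between groups at 4834 ± 431 in Tg and 5320 ± 185 in wt (SD, n = 3 each). Cckbr and Tacr3, but not Ntsr1, are also among the genes the study selected on these arrays.

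The somatostatin and neuropeptide Y receptors, chosen for description after their values were seen, all overlapped. The log2 difference was -0.18 for Sstr2, 0.23 for Sstr3, -0.08 for Sstr4 and -0.03 for Sstr5, the inhibitory receptors of somatostatin. It was 0.07 for Npy1r, 0.09 for Npy2r and 0.09 for Npy5r. The VIP receptor Vipr1 had 0.04. None of these was past an unadjusted p of 0.05.

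Transcripts of the proteins that build and fill dense-core granules were lower more often than higher, but their summed signal overlapped between groups. Of 18 genes for prohormone processing and granule proteins, 17 passed the filter; 12 were lower and 5 higher in Tg (56.0% and 44.0% of all genes), with a median log2 difference of -0.09. That median was -0.16 with arrays centred on their medians, -0.05 under quantile normalization, -0.14 without wt 1, and -0.05 without Tg 2 or without wt 2. The median over all genes was -0.03. The summed signal of the list was 92558 to 100265 in Tg and 99566 to 105080 in wt (exact permutation test, two-sided, p = 0.2). Resp18, a protein of the regulated secretory pathway, was called by Cyber-T at an adjusted p of 0.0128 but not by limma (adjusted p = 0.143). It read 1299.1, 1801.7 and 1653.3 in Tg and 2783.6, 2611.7 and 2832.4 in wt. No Tg array reached the lowest wt array, and the means were 1585 ± 258 in Tg and 2743 ± 116 in wt (SD, n = 3 each; log2 difference -0.80, SE 0.120). Resp18 too was selected by the study on these arrays.

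Wholly lower in Tg were 5 of the 17, namely Resp18, Scg3, Ptprn, Ptprn2 and Qpct, and none was wholly higher (8.8% and 5.19% of all genes). The granin Scg3, which binds granule membranes, averaged 7622 ± 463 in Tg and 9339 ± 543 in wt (log2 difference -0.29, limma adjusted p = 0.257), and the granin Chga 1132 ± 129 in Tg and 1402 ± 125 in wt (-0.31, limma adjusted p = 0.446). Pcsk1n, an inhibitor of the convertase PC1, averaged 5546 ± 387 in Tg and 6392 ± 668 in wt (SD, n = 3 each; log2 difference -0.20, limma adjusted p = 0.525). Cpe, the carboxypeptidase that trims most precursors, differed by 0.00 on the log2 scale.

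No single precursor outside the 10 genes lay wholly below wt, though their summed signal did (8.8% wholly below and 5.19% wholly above among all genes). Of 27 others listed, 21 were annotated and 15 passed the filter, of which 10 were lower and 5 higher (56.0% and 44.0% of all genes). Their median log2 difference of -0.22 moved to 0.03 without wt 3 and to -0.09 without wt 1, and none was past an unadjusted p of 0.05. The summed signal was 2746 to 3369 in Tg and 3493 to 3933 in wt (exact permutation test, two-sided, p = 0.1, as for all genes). The ratio of the sums was 0.861, against 0.922 for the 10 precursors and 0.972 for all genes. Grp, the precursor of gastrin-releasing peptide, averaged 973.9 ± 137 in Tg and 1245 ± 266 in wt (SD, n = 3 each; log2 difference -0.34, limma adjusted p = 0.528). The next smallest p values were those of Pnoc (-0.29), Adcyap1 (-0.37) and Npvf (-0.66), whose groups overlapped. Npvf averaged 50.97 ± 29.6 in Tg, near the filter level of 47.8, and 86.53 ± 31.1 in wt (SD, n = 3 each). Only Hcrt, the orexin precursor, did not overlap, at 133.2 ± 10.3 in Tg and 111.5 ± 4.7 in wt (SD, n = 3 each; log2 difference 0.23, limma adjusted p = 0.824).

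**Figure D4:**
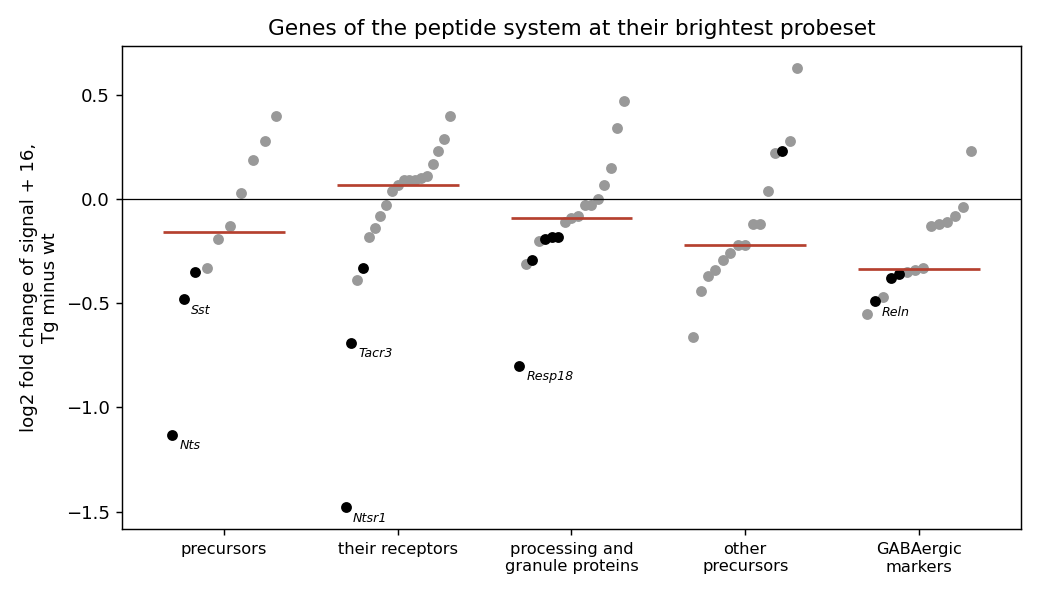
Log2 difference (Tg minus wt) of each gene in 5 lists, with 1 point per gene at its brightest kept probeset. Black points are genes whose Tg and wt arrays did not overlap and the red line is the median of the list, which was -0.16 for the precursors, 0.07 for the receptors and -0.34 for the GABAergic interneuron markers.

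Markers of GABAergic interneurons, 1 of the cell classes that make these peptides, were, like Sst and Vip, mostly lower on the Tg arrays. The precursors did not all follow: Cck (0.19) and Crh (0.40), which interneurons also make, were higher in mean with overlapping groups. Npy (-0.13) overlapped as well. Of 17 GABAergic interneuron markers, 15 were annotated and 14 passed the filter; 13 were lower and 1 was higher in Tg (56.0% and 44.0% of all genes), and 4 were lower at an unadjusted limma p under 0.05 (4.95% of all genes). The median log2 difference of -0.34 was -0.16 when all kept probesets of a gene were averaged, -0.20 without Tg 3, -0.22 without Tg 1 and -0.23 without wt 2. Their summed signal was 21652 to 23855 in Tg and 23914 to 29679 in wt (exact permutation test, two-sided, p = 0.1, again as for all genes). Wholly lower in Tg were Reln, Slc32a1 and the transcription factor Sox6 (349.8 ± 50.9 in Tg and 457.7 ± 31.5 in wt, SD, n = 3 each), beside 8.8% wholly lower among all genes. Reln, the extracellular matrix protein of a further interneuron class, averaged 1913 ± 260 in Tg and 2674 ± 185 in wt (SD, n = 3 each; log2 difference -0.49, limma adjusted p = 0.227). Slc32a1, the vesicular GABA transporter, averaged 794 ± 84.8 in Tg and 1022 ± 132 in wt (-0.36, limma adjusted p = 0.427), and the GABA-synthesizing enzyme Gad2 1469 ± 222 in Tg and 2055 ± 449 in wt (-0.47, limma adjusted p = 0.350). The other synthesizing enzyme, Gad1, differed less, at 9191 ± 637 in Tg and 10190 ± 1920 in wt (-0.13), as did Pvalb, the marker of fast-spiking interneurons, at -0.12. On single arrays the mean of the list was -0.20, 0.01 and -0.20 in Tg and 0.07, 0.21 and 0.10 in wt, relative to the 6 arrays. Tg 2 was thus the highest Tg array of the list, as it was for Sst and Nts, whereas for Vip the highest was Tg 3. Their part in the precursor differences was not tested.

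Markers of regions and other cells that a hippocampal dissection can hold differed in direction between lists. Each count of lower or higher genes here and in the next paragraph stands beside 56.0% lower and 44.0% higher among all genes. Of the 6 kept of 8 subiculum and retrohippocampal cortex markers, 6 were lower, with a median log2 difference of -0.62 (-0.39 without wt 2, -0.99 without wt 1) and a summed signal of 3118 to 3495 in Tg and 4153 to 5986 in wt. Tshz2 had 480.2 ± 79.7 in Tg and 1039 ± 89.4 in wt and Slc17a6 396.4 ± 204 in Tg and 772.7 ± 118 in wt (SD, n = 3 each). All 8 dentate granule cell markers were higher (median 0.44, and 0.15 without wt 1 and wt 2, a setting chosen after seeing the data), with 15028 to 16204 summed in Tg and 11644 to 15016 in wt, among them Prox1 (0.75) and Lct (0.67). For CA field markers 7 of 9 were higher (median 0.25, but 0.05 over all kept probesets of a gene and 0.13 without Tg 1), with 13349 to 15919 in Tg and 13086 to 13717 in wt, led by Nectin3 (0.44) and Fibcd1 (0.33).

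Of 10 striatal markers 8 were kept and 6 were lower (median -0.40, and -0.26 without Tg 1, -0.64 without Tg 3 and -0.66 without wt 2), with Drd1 at 97.83 ± 18.9 in Tg and 331.2 ± 206 in wt, against Pde10a at 1142 ± 157 in Tg and 781 ± 136 in wt (SD, n = 3 each). The 6 lower ones include Gpr6, which averaged 37.07 in Tg and 114.3 in wt. Its Tg mean lay under the filter level of 47.8, so it was kept through its wt signal alone. The summed signal of the 8 kept striatal markers was 2484 to 2738 in Tg and 2625 to 2793 in wt. Of 10 neocortical layer markers 9 were kept and 7 were lower (median -0.15; Cplx3 -0.79, and Ccn2 -1.05 with overlapping groups). The 2 higher ones, Rorb (0.42) and Bcl6 (0.21), lay wholly above wt and are named after their values were seen. Of the 9, 1 (Cplx3) lay wholly below wt. Among all genes 5.19% lay wholly above and 8.8% wholly below. Of 7 thalamic markers 2 were lower (median 0.02; Rgs16 0.38, Tnnt1 -0.54). On the log2 scale all 8 choroid plexus markers were lower (median -0.75), but 6 of the 8 had a higher mean linear signal in Tg, and without Tg 3 the median was 0.37 (without Tg 2, -1.81). They had a summed signal of 4786 to 69340 in Tg and 48878 to 55488 in wt, where Tg 3 was the low and Tg 2 the high array (Ttr read 40079.7, 57637.7 and 3915.2 in Tg and 50822.4, 48740.4 and 44775.6 in wt, and Folr1 differed by -0.85). Median log2 differences were -0.15 for astrocyte (Gfap -0.30, Aldoc -0.16; -0.01 over all kept probesets of a gene), -0.07 for oligodendrocyte (Mbp 0.10, Cnp -0.20), -0.12 for microglial (Csf1r -0.18, Cx3cr1 0.19) and -0.13 for endothelial markers (Cldn5 -0.22, Pecam1 -0.41). The summed signal was 46995 to 48975 in Tg and 52931 to 53980 in wt for the astrocyte list. It was 11438 to 11771 in Tg and 12264 to 12921 in wt for the microglial list. The sum over all genes also lay lower in every Tg array. Sums overlapped for the oligodendrocyte list (59368 to 73229 in Tg, 61441 to 73582 in wt) and the endothelial list (1776 to 2341 in Tg, 2173 to 2410 in wt). Of the genes named in these lists, Reln, Tshz2, Slc17a6, Prox1, Lct, Cplx3, Ccn2 and Mbp were also selected by the study on the same arrays. No kept marker was at 0. The part of these shifts in the values of Sst, Vip and Nts was not tested, and a difference in dissection and one in expression cannot be told apart in these arrays.

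The genes with patterns nearest to the 3 separated precursors were found by Pearson's r over the 6 arrays among 13854 genes, given as a description of arrays that also share the group difference. Nearest to Sst were Klf5, a zinc finger transcription factor (r = 0.999), Kif2a (0.995) and Smc1a (0.994). Klf5 read 151.6, 237.8 and 179.7 in Tg and 296.9, 353.9 and 341.3 in wt, the same order of the arrays as Sst (log2 difference -0.77, limma adjusted p = 0.264), and it too is among the genes selected by the study. The other two had small differences, of -0.10 for Kif2a and -0.20 for Smc1a. Gadd45gip1 (0.991), Abcd3 (0.989) and Cd81 (0.989) were nearest to Nts, and Ang (0.988), Rapgef3 (0.983) and Rit2 (0.983) to Vip. Rit2, a small GTPase of neurons, averaged 1685 ± 108 in Tg and 2152 ± 97.5 in wt (SD, n = 3 each), and the others of these 6 genes differed by between -0.40 (Rapgef3) and -0.09 (Cd81).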

How the data were processed

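The deposited values were intensities, 1 MAS5 signal per probeset and array on a linear scale, which the authors computed before deposit; MAS5 is named in the submitters' processing notes, and its version is not given in the sources used here. The table held 45101 probesets on 6 arrays, 3 Tg and 3 wt, grouped by their titles. Depth has no meaning for arrays, and their number limits the precision. Separate mice per array come from the study's methods.

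The 64 control probesets were removed and the 31% of the rest with the lowest mean log2(signal + 16) left out, in place of the detection calls that the methods name, which kept 31076 with a level of at least 47.8. The added 16 makes differences of dim probesets smaller. The group comparison used limma 3.58.1 under R 4.3.3 (moderated variances with an intensity trend), with Benjamini-Hochberg adjustment over all kept probesets and a threshold of 0.05. Cyber-T was rebuilt from its description, with a confidence of 10. The methods' own RMA values need scanned images, which were not used here. The script was tested on simulated data.

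GEO's platform annotation pairs 34945 probesets with 1 gene, 932 with several and 9160 with none. Each gene stands for the brightest kept probeset annotated to it alone, which gave 13854 genes. Levels of different probesets were not compared. The 10 members and the 15 other lists were chosen with earlier results of these data known, so no list is independent support. The text names all members at every probeset; in the lists of receptors, granule proteins, other precursors and GABAergic markers, any called gene and the 4 with the smallest p; in each other marker list the 2 with the smallest p; and the 3 genes nearest in pattern to the 3 members with the smallest p. Any other named gene was chosen after its values were seen, either because its groups did not overlap or because it is a well-known member of its list.

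The replicate numbers of the labels did not pair the arrays: deviations from the group means correlated at -0.0159, 0.00779 and 0.0333 for numbers 1, 2 and 3, where 0.1 would have been needed in each. Alternatives were added constants of 1 and 64, quantile normalization, centring on array medians, no filter, the brighter 50% of probesets, no intensity trend, array weights, the mean of a gene's kept probesets, Cyber-T, a replicate block and leaving out each array. Numbers were handled in Python 3.11.15 with pandas 2.3.3, exact tests run with scipy 1.17.1 and figures drawn with matplotlib 3.10.9.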

Additional observations from a re-analysis of the deposited data

How the results depend on the processing

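Sst, Vip and Nts were lower in Tg at an unadjusted p under 0.05 in each of the 17 alternative fits, and their groups did not overlap under quantile normalization or centring. The log2 difference ranged from -0.58 to -0.39 for Sst (adjusted p 0.0494 to 0.684), from -1.41 to -0.83 for Nts (0.0658 to 0.836) and from -0.44 to -0.29 for Vip (0.205 to 0.801). The adjusted p of Sst passed the threshold under Cyber-T only, which called 65 probesets in all against 0 with limma. Counted by gene at the brightest probeset, Cyber-T called 25 of all 13854 genes (0.18%). Among these were 1 of the 10 precursors (Sst) and 5 of the listed genes (Sst, Resp18, Dsp, Lct and Tshz2). The lists were chosen with earlier results of these data known.

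With 1 array left out, limma called 0 to 6 probesets over the whole array, the 6 without Tg 2, 1 without wt 1 (Malat1) and 1 without wt 3 (AY036118). It called 0 to 2 listed genes (Slc17a6 and Kcnj13, without Tg 2), and no precursor. Precursors wholly higher in Tg numbered 0 with all arrays and 0 to 1 with 1 array left out: Crh without Tg 1 or without wt 2, and Cck without wt 1. Penk without Tg 1 and Tac1 without Tg 3 joined the wholly lower ones. The difference of Tac1 ranged from -0.57 (without Tg 3) to -0.06 (without Tg 1). Fewer arrays separate more easily, and the share of all genes without overlap was not counted in these settings. Leaving out both wt 1 and wt 2, whose 18S control stood above the rest, was a setting chosen after seeing the data. With 1 wt array left, the log2 difference was 0.31 for Cck, 0.36 for Crh and -0.26 for Pdyn.

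The sign of Pdyn turned to -0.05 under quantile normalization, -0.04 under centring, -0.03 under array weights, -0.07 without Tg 2, -0.09 without Tg 3, -0.16 without wt 2 and -0.26 without wt 1 and wt 2 (with 1 array left out, -0.16 to 0.26). Npy turned to 0.02 without wt 2, and Tac2 to -0.01 without wt 1 (range with 1 array left out -0.01 to 0.48). The cause was not tested. With 1 array left out, the median of the precursors ranged from -0.26 to -0.04, and those of the oligodendrocyte, microglial and endothelial markers from -0.25 to 0.13, from -0.14 to -0.05 and from -0.21 to -0.02, in that order. The thalamic median ranged from -0.05 to 0.16 and the neocortical one from -0.23 to -0.06 (-0.31 over all kept probesets of a gene). Cck had an unadjusted limma p of 0.0466 without wt 1. A fit with the replicate number as a block called 1 probeset overall (Zeb2) and no precursor. Pdyn, Tac2 and Crh were the dimmer precursors, at percentiles 31.9, 28.6 and 17.9 of level among the kept probesets, in that order. The second Tac1 probeset lay below the filter on level. Crh could not be tested among the brighter 50% of probesets.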
